A study of Mus musculus with 8 samples.

Results

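The integrated stress response genes and cytosolic tRNA synthetases described here are 34 mouse genes, chosen by symbol from the 55573 genes of the deposited tables. They comprise 22 genes of the ATF4 network (Atf4 itself, its partners and genes known as its targets) and 12 tRNA synthetases. All 34 symbols matched the table through their Ensembl identifiers in GENCODE M21, which holds 55480 of the 55573 identifiers, and all 34 passed the filter on low counts. Ddit3 has a second identifier there, ENSMUSG00000116429, whose exons all lie inside those of Ddit3. That row held 0 counts in each of the 8 libraries and was not tested.

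Bulk RNA-seq of polyadenylated RNA was made from 8 libraries of mouse embryonic stem cells (ESCs), 2 in each of 4 groups. The 2C::GFP+/SA group (SA below) carries a reporter of the 2-cell-like state and was given 2 µM SGC0946, an inhibitor of the histone methyltransferase DOT1L, and 2 µM AS8351, a compound known to block KDM5B, a demethylase of histones (a role taken from general knowledge, since the labels state no target for either compound), with IL6 and its soluble receptor at 10 ng/ml in place of LIF. The 2C::GFP+/SGC group (SGC below) received 2 µM SGC0946 with LIF at 10 ng/ml. The 2C::GFP+ group is the same kind of reporter cell without compound, and mESC is wild-type ESCs without compound. SA and SGC differ in both AS8351 and the cytokine, which cannot be told apart here. For mESC and 2C::GFP+ the labels list 2 media, both with LIF, and do not say which was used, so in every comparison with either group a difference in medium cannot be told apart from the compounds or the cell type. The labels also do not say whether reporter-positive cells were sorted or whether replicates came from separate cultures. The p-values therefore measure the spread between libraries, which may be technical. The columns taken as 2C::GFP+ were matched by elimination. They are headed KOSR, which matches no group label. Knockout serum replacement stands in the growth protocol, and whether the header names the medium of that group is not stated.

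In the integrated stress response, kinases that sense amino acid shortage, misfolded protein, heme loss or viral RNA phosphorylate the translation factor eIF2. General translation then falls, while translation of ATF4 rises because of short reading frames upstream in its mRNA. ATF4 is a transcription factor that raises genes for amino acid synthesis, amino acid uptake and the charging of tRNAs, together with factors that feed back on the response. Much of the control of ATF4 acts on its translation, so the RNA levels given here do not measure ATF4 protein. In bulk RNA, fewer cells of a type and less RNA per cell cannot be told apart.

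Library totals were 96895327 and 12299931 counts in SA, 133694657 and 13902619 in SGC, 126660609 and 16474223 in 2C::GFP+, and 145810034 and 19544870 in mESC. Replicate 1 was the deeper library in every group. In each group, 28 of the 34 genes had a lower TPM (the deposited level per length of transcript) in replicate 1 than in replicate 2. Each group holds 1 library of either depth. Markers of ESCs were present in all libraries, with summed levels between 8770 and 12400 TPM. Markers of the 2-cell-like state summed to 8450 and 3760 TPM in SA, 1920 and 1990 in SGC, 691 and 954 in 2C::GFP+, and 3.99 and 12.3 in mESC.

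Genes that ATF4 binds often hold a C/EBP-ATF response element near their start, searched here as TGATGNAA on both strands from 250 bases before to 50 bases after each start in RefSeq (GRCm38.p6). Of 28 genes with such a window, 12 held a match: 7 of 20 ATF4 network genes (35%) and 5 of 8 synthetases (62.5%), against 4.51% of 27025 genes. The stricter TGATGCAA, which the first motif contains, was found in 5 of 20 (25%) and 4 of 8 (50%), against 1.03%. The lines below give 30 bases around the match, on the strand of the gene, with the match in capitals, for 8 of the 12 genes, chosen to show both classes and both directions. The other 4 were Slc7a11, Vldlr, Aars and Tars.
Atf3, chr1:191183425-191183454, minus strand: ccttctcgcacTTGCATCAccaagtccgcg
Trib3, chr2:152344028-152344057, minus strand: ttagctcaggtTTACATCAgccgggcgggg
Chac1, chr2:119351038-119351067, plus strand: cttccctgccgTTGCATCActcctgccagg
Pycr1, chr11:120643833-120643862, minus strand: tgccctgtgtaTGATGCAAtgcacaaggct
Asns, chr6:7693214-7693243, minus strand: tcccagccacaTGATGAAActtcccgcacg
Gars, chr6:55037960-55037989, plus strand: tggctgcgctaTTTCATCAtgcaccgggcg
Iars, chr13:49682126-49682155, plus strand: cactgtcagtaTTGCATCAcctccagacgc
Yars, chr4:129189895-129189924, plus strand: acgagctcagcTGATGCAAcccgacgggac
A match is a run of letters and was not tested for binding. The matches shared by these genes went with opposite directions in SA against 2C::GFP+: of the 12 genes with a match, 2 rose, 5 fell and 5 were not called, and of the 16 with a window and no match, 3 rose, 5 fell and 8 were not called. Of all 20608 genes tested, 28.7% were called in that comparison, 14.9% higher and 13.8% lower. Median log2 fold changes there were -0.14 with a match and 0.30 without in the network, and -0.23 and -0.44 in synthetases. In SA against SGC they were -1.47 and -0.02 in the network, and -0.24 and -0.46 in synthetases. Whether a match goes with direction was not tested.

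Per length of transcript, the ATF4 network spanned a far wider range of levels than the synthetases. Asns, which makes asparagine, had the highest mean over all libraries at 501 TPM, followed by Atf4 at 434 TPM and Slc7a5 at 336 TPM. Vldlr, a lipoprotein receptor, had the lowest at 0.855 TPM, below Cebpb at 1.98 TPM and Slc7a11 at 3.18 TPM. Every synthetase lay between Cars at 88.4 TPM and Gars at 384 TPM. Neighbours in these orders often overlapped: Gars spanned 218 to 527 TPM over the libraries and Iars 249 to 510 TPM. Atf3 had the widest spread of the 34 genes, its highest library being 30.7 times its lowest, whereas Wars had the narrowest at 1.36 times. The summed level of the 12 synthetases was 1890 and 1960 TPM in SA, 2530 and 2950 TPM in SGC, 2230 and 2510 TPM in 2C::GFP+, and 2430 and 2770 TPM in mESC. Both SA libraries were the lowest of the 8 on this sum. The ATF4 network summed to 2210 and 2650 TPM in SA, 3100 and 3570 TPM in SGC, 2520 and 2880 TPM in 2C::GFP+, and 3300 and 3880 TPM in mESC. On that sum SA and 2C::GFP+ overlapped.

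**Figure D1:**
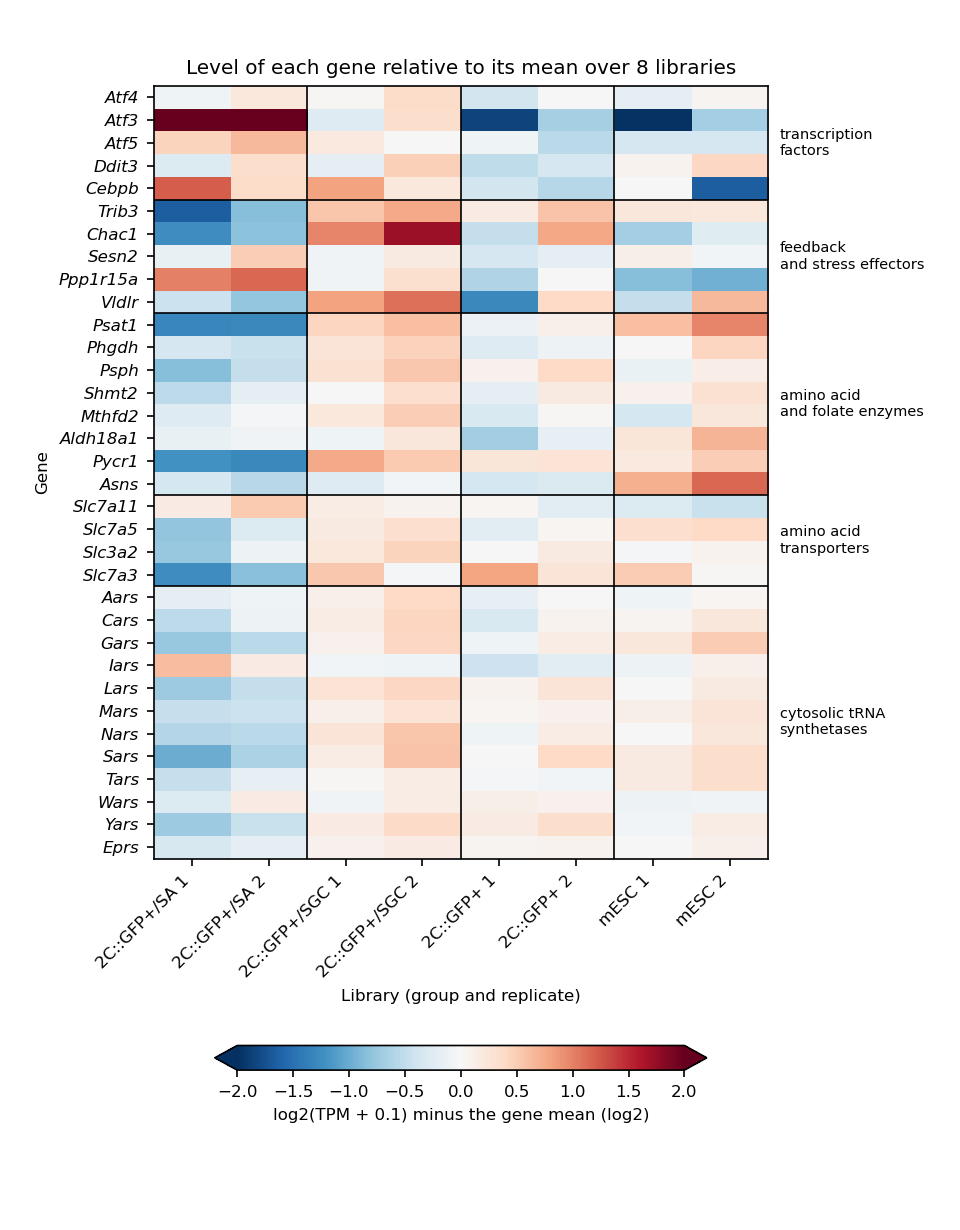
Rows are the 34 genes grouped by role and columns are the 8 libraries. Colour gives log2(TPM + 0.1) minus the mean of the gene over all libraries, clipped at 2 in either direction. Most rows of the synthetase block are blue in both SA libraries, with Iars red, while the transcription factor block is red for Atf3 and Atf5 in SA.

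In SA against 2C::GFP+, the transcription factors that were called stood higher, the enzymes and transporters that were called stood lower, and the feedback genes split. Atf3, Atf5, Ppp1r15a and Sesn2 rose, while Trib3, Chac1, Psat1, Psph, Pycr1, Slc7a5, Slc3a2 and Slc7a3 fell. Among synthetases, Gars, Lars, Mars, Nars, Sars and Yars fell and Iars rose. Thus 4 of the 22 network genes were called higher and 8 lower, and 1 of the 12 synthetases was called higher and 6 lower. The share of all tested genes called was 28.7%, with 14.9% higher and 13.8% lower (edgeR quasi-likelihood test, adjusted p under 0.05).

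Atf4 had 405 and 499 TPM in SA, against 334 and 427 TPM in 2C::GFP+, and the groups overlapped. Its log2 fold change of 0.30 ± 0.14 (SE, n = 2 per group) was not called (edgeR adjusted p = 0.117). Atf3, a factor of the same family that acts in many stress responses, had 19.7 and 29.0 TPM in SA, against 1.05 and 2.51 TPM in 2C::GFP+. Both SA libraries stood far above both others, with a log2 fold change of 3.97 ± 0.49 (adjusted p = 9.1e-05). Atf5, whose mRNA also carries upstream reading frames, had 84.5 and 96.4 TPM in SA, against 58.3 and 42.5 TPM in 2C::GFP+. It rose by 0.88 ± 0.19 (log2, adjusted p = 0.00389). Ddit3, which encodes the pro-apoptotic factor CHOP, had 9.72 and 15.1 TPM in SA, against 8.28 and 9.36 TPM in 2C::GFP+. The SA libraries were higher by 0.51 ± 0.31 (log2), which was not called (adjusted p = 0.24). Cebpb, a dimer partner of ATF4, had 4.04 and 2.21 TPM in SA, against 1.30 and 1.11 TPM in 2C::GFP+, and was also not called at 1.5 ± 0.66 (log2, adjusted p = 0.104). Its exons share 20.7% of their bases with Tmem189 on the opposite strand, and whether the counting used strand is not stated in the labels.

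The feedback and effector genes went both ways. Ppp1r15a, the phosphatase subunit (GADD34) that reverses the phosphorylation of eIF2, had 161 and 177 TPM in SA, against 52.5 and 79.5 TPM in 2C::GFP+. It rose by 1.43 ± 0.18 (log2, adjusted p = 8.11e-05) with no overlap between the groups. Sesn2, a stress-induced inhibitor of mTORC1 signalling, had 161 and 249 TPM in SA, against 141 and 157 TPM in 2C::GFP+, and rose by 0.49 ± 0.14 (log2, adjusted p = 0.0218). Trib3, a pseudokinase that damps ATF4 activity, had 14.6 and 25.4 TPM in SA, against 51.4 and 68.2 TPM in 2C::GFP+. This is a fall of -1.57 ± 0.19 (log2, adjusted p = 6.67e-05), with both SA libraries below both others. Chac1, which degrades glutathione, had 7.58 and 10.2 TPM in SA, against 13 and 30.8 TPM in 2C::GFP+, and fell (-1.21 ± 0.36 log2, adjusted p = 0.0239). The 2C::GFP+ libraries of Chac1 differed from each other more than the SA libraries did. Vldlr was low in all libraries and not called, with 0.517 and 0.386 TPM in SA, against 0.239 and 0.993 TPM in 2C::GFP+.

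Among the 8 enzymes, those that fell act in serine and proline synthesis. Psat1, the aminotransferase of serine synthesis, had 69.9 and 70.7 TPM in SA, against 159 and 185 TPM in 2C::GFP+ (-1.22 ± 0.14 log2, adjusted p = 5.08e-05). Psph, the phosphatase of the same pathway, had 15.2 and 19.8 TPM in SA, against 29.2 and 36.1 TPM in 2C::GFP+ (-0.85 ± 0.16, adjusted p = 0.00124). Both were below the 2C::GFP+ libraries without overlap, although 10.4% of the exon bases of Psph lie opposite Cct6a. Phgdh, the first enzyme of that pathway, had 129 and 120 TPM in SA, against 137 and 153 TPM in 2C::GFP+, and was not called (adjusted p = 0.559). Pycr1, which makes proline, had 8.06 and 7.61 TPM in SA, against 22.2 and 22.7 TPM in 2C::GFP+ (-1.43 ± 0.20, adjusted p = 0.000154). The replicates of Pycr1 lay close together in both groups. Aldh18a1, an earlier enzyme of proline synthesis, had 80.6 and 85.2 TPM in SA, against 55.1 and 79.8 TPM in 2C::GFP+, and was not called (adjusted p = 0.111). Asns had 361 and 314 TPM in SA, against 361 and 377 TPM in 2C::GFP+ (-0.05 ± 0.17 log2, adjusted p = 0.853). The mitochondrial folate enzymes Shmt2 and Mthfd2 were not called, at -0.30 ± 0.14 and 0.05 ± 0.16 (log2, adjusted p = 0.109 and 0.837).

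Of the 4 transporters, 3 fell. Slc7a3, a carrier of cationic amino acids, had 55.6 and 73.1 TPM in SA, against 227 and 157 TPM in 2C::GFP+ (-1.56 ± 0.32 log2, adjusted p = 0.0118). Slc7a5 and Slc3a2 form the heterodimer that imports leucine and other large neutral amino acids. Slc7a5 had 188 and 268 TPM in SA, against 280 and 334 TPM in 2C::GFP+ (-0.39 ± 0.12, adjusted p = 0.0309). Slc3a2 had 141 and 223 TPM in SA, against 241 and 272 TPM in 2C::GFP+ (-0.47 ± 0.14, adjusted p = 0.02). Slc7a11, which brings in cystine and pairs with Slc3a2 too, had 3.5 and 4.52 TPM in SA, against 3.19 and 2.66 TPM in 2C::GFP+, and was not called at 0.48 ± 0.22 (adjusted p = 0.128).

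The synthetases, which load amino acids onto tRNAs, had a median log2 fold change of -0.35 in SA against 2C::GFP+, beside 0.01 over all tested genes and -0.10 over the ATF4 network. The lowest was Sars, for serine, with 67.5 and 86.0 TPM in SA, against 133 and 176 TPM in 2C::GFP+ (-0.96 ± 0.15, adjusted p = 0.000365). Yars, for tyrosine, had 62.9 and 76.2 TPM in SA, against 117 and 133 TPM in 2C::GFP+ (-0.80 ± 0.12, adjusted p = 0.000351). Neither gene overlapped between the groups. Lars, for leucine, had 117 and 139 TPM in SA, against 203 and 231 TPM in 2C::GFP+ (-0.71 ± 0.12, adjusted p = 0.000687), and Gars, for glycine, had 218 and 253 TPM in SA, against 347 and 409 TPM in 2C::GFP+ (-0.63 ± 0.14, adjusted p = 0.00382). Nars and Mars, for asparagine and methionine, fell by less, at -0.54 ± 0.14 and -0.44 ± 0.13 (log2, adjusted p = 0.0106 and 0.0228). Iars, for isoleucine, went the other way, with 510 and 371 TPM in SA, against 249 and 283 TPM in 2C::GFP+ (0.82 ± 0.20, adjusted p = 0.0117). Its SA libraries were also farther apart than those of any other synthetase on the TPM scale. Aars, Cars, Tars, Wars and Eprs were not called, with log2 fold changes between -0.26 and 0.01. Of the exon bases of Aars, 14.3% are shared with Exosc6 on the same strand.

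**Figure D2:**
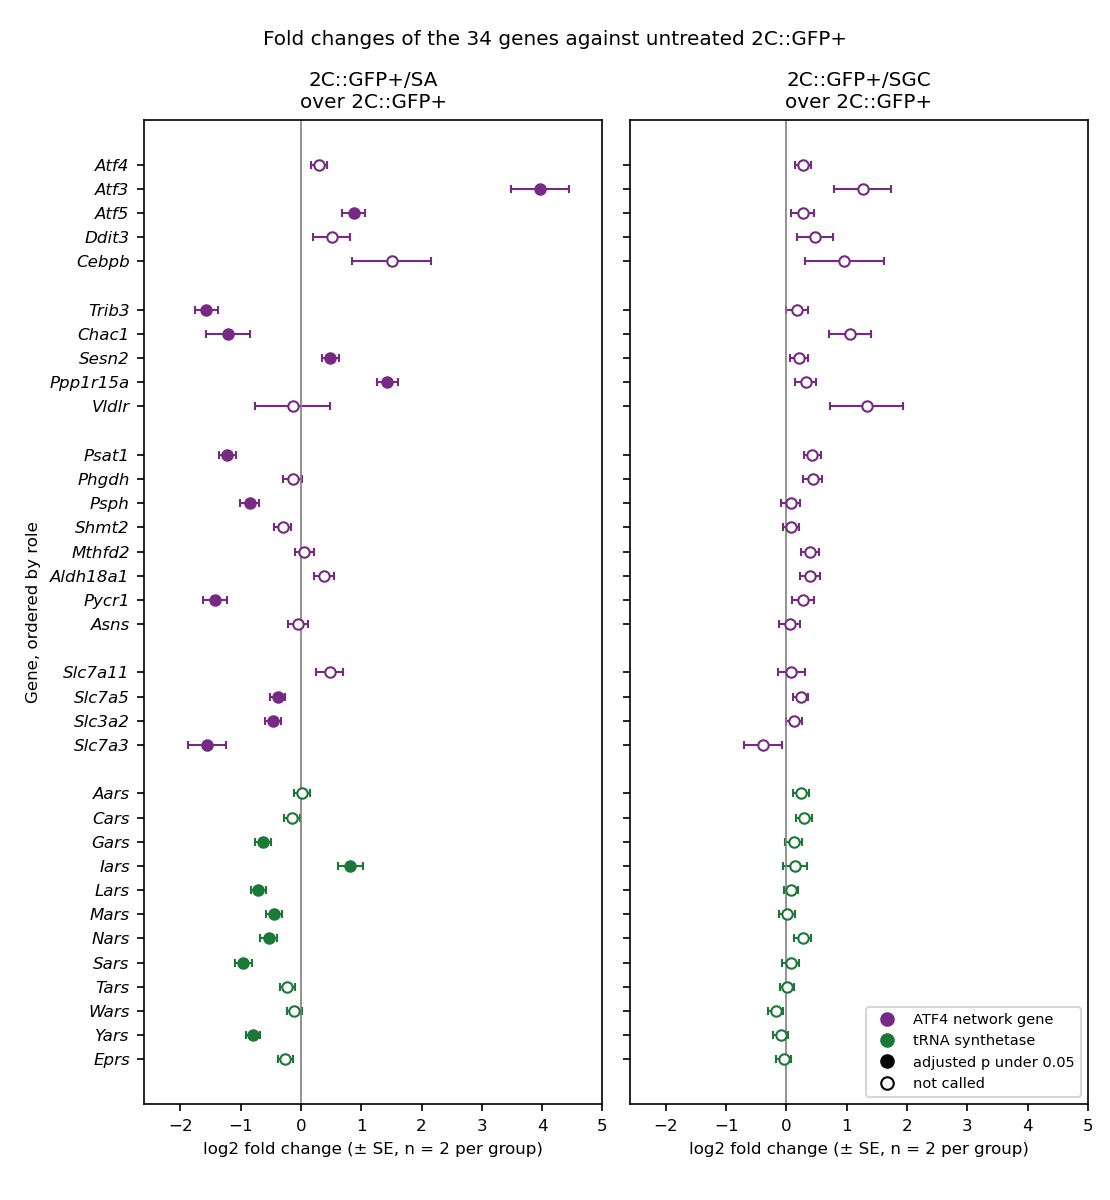
Points give the log2 fold change of each gene over untreated 2C::GFP+ with its SE (n = 2 libraries per group), for SA on the left and SGC on the right. Filled points passed an adjusted p under 0.05. In SA the filled points lie on both sides of 0, with Atf3 at 3.97 and Trib3 at -1.57, and in SGC no point is filled.

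Of the 19 calls, 11 held in every alternative run, namely Atf3, Atf5, Trib3, Psat1, Psph, Pycr1, Ppp1r15a, Gars, Lars, Sars and Yars. The other 8 were lost when single libraries were left out (edgeR adjusted p throughout). Without 2C::GFP+ replicate 1, adjusted p was 0.092 for Sesn2, 0.0774 for Slc7a5, 0.0882 for Slc3a2, 0.0974 for Iars, 0.153 for Mars and 0.0559 for Nars. Without 2C::GFP+ replicate 2, it was 0.259 for Chac1, 0.0631 for Sesn2, 0.147 for Slc7a5, 0.0605 for Slc3a2, 0.15 for Iars, 0.054 for Mars and 0.061 for Nars. Without SA replicate 1, it was 0.153 for Chac1, 0.151 for Slc7a5, 0.151 for Slc3a2 and 0.066 for Slc7a3. Without SA replicate 2, it was 0.0684 for Chac1, 0.0853 for Sesn2, 0.167 for Slc7a3, 0.199 for Mars and 0.0684 for Nars. Slc7a5 also missed the threshold without SGC replicate 1 (0.0601) and without mESC replicate 1 (0.0588), as did Chac1 without mESC replicate 1 (0.0519). Some of the 8 were also lost with all libraries kept. DESeq2 did not call Slc7a5 (adjusted p = 0.12), Slc3a2 (0.0683) or Mars (0.0786). Limma on log2(TPM + 1) did not call Chac1 (0.0733), Sesn2 (0.156), Slc7a5 (0.0943) or Slc3a2 (0.0878). EdgeR with DESeq2 size factors did not call Slc7a5 (0.0757) or Mars (0.0525). EdgeR with upper-quartile scaling did not call Slc7a5 (0.093), Slc3a2 (0.0601) or Mars (0.0562). Calls were also gained, all higher in SA. Aldh18a1 was called with the replicate number as a block (0.40, adjusted p = 0.0431), without the filter on low counts (0.42, 0.0299), without 2C::GFP+ replicate 2 (0.58, 0.0486) and without SA replicate 2 (0.52, 0.0355). Atf4 was called with upper-quartile scaling (0.40, adjusted p = 0.0478), Slc7a11 by DESeq2 (0.56, 0.0463) and Cebpb without SA replicate 2 (1.95, 0.043). The median of the ATF4 network changed sign to 0.16 without SA replicate 2 and to 0.03 without 2C::GFP+ replicate 2, whereas that of the synthetases stayed between -0.46 and -0.22 in all 17 alternatives.

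Other genes of the pathway were read beside these members. Of 23 other ATF4 targets tested, 11 fell and 1 rose in SA against 2C::GFP+, with a median of -0.50. Gpt2, a mitochondrial alanine aminotransferase, had 13.8 and 15.1 TPM in SA, against 40.7 and 48.0 TPM in 2C::GFP+ (-1.55 ± 0.14 log2, adjusted p = 9.36e-06). Jdp2, a transcription factor that forms dimers with other members of its class, had 2.22 and 2.19 TPM in SA, against 13.7 and 18.2 TPM in 2C::GFP+ (-2.73 ± 0.30, adjusted p = 3.35e-05). The gene that rose was Ddit4, an inhibitor of mTORC1 signalling, with 432 and 434 TPM in SA, against 74.7 and 118 TPM in 2C::GFP+ (2.26 ± 0.22, adjusted p = 6.89e-05). None of these 3 overlapped between the groups. Of 11 other cytosolic synthetases and complex proteins, 4 fell, among them Vars (-0.68 ± 0.13, adjusted p = 0.0013) and Rars (-0.55 ± 0.13, adjusted p = 0.0064). Of 17 mitochondrial synthetases 3 fell, among them Iars2 (-0.44 ± 0.12, adjusted p = 0.0139). Over all tested genes 13.8% were lower and 14.9% higher, and the mitochondrial share called lower was close to that of all genes.

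Upstream of ATF4, 4 of 14 eIF2 kinases and factors fell and 1 rose, beside 13.8% lower and 14.9% higher among all tested genes. Eif2ak3, the kinase PERK of the endoplasmic reticulum, had 11.3 and 16.3 TPM in SA, against 9.47 and 9.78 TPM in 2C::GFP+ (0.55 ± 0.18 log2, adjusted p = 0.0382). Eif2b4, a subunit of the exchange factor eIF2B, had 53.5 and 72.7 TPM in SA, against 96.8 and 94.2 TPM in 2C::GFP+ (-0.57 ± 0.13, adjusted p = 0.00614). Eif2ak2, the kinase PKR, had 10.7 and 11.8 TPM in SA, against 18.6 and 19.4 TPM in 2C::GFP+ (-0.69 ± 0.17, adjusted p = 0.00895). Of 19 genes of the endoplasmic reticulum arm, 7 fell and 1 rose. Xbp1 had 36.0 and 45.9 TPM in SA, against 136 and 143 TPM in 2C::GFP+ (-1.72 ± 0.14, adjusted p = 3.93e-06), and the chaperone Hspa5 fell by -0.64 ± 0.13 (adjusted p = 0.00205). Its co-chaperone Dnajb9 rose, with 86.6 and 84.0 TPM in SA, against 23.2 and 28.8 TPM in 2C::GFP+ (1.79 ± 0.19, adjusted p = 2.62e-05).

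Markers of other cell types moved in the same comparison, and their part in these results was not tested. Of 8 markers of 2-cell-like cells, 7 were called higher, and of 8 ESC markers 5 were called lower, with sums of 8820 and 8770 TPM in SA, against 12400 and 11200 TPM in 2C::GFP+. Of 6 primitive endoderm markers, 5 were called higher, with sums of 32.9 and 76.2 TPM in SA, against 3.61 and 8.70 TPM in 2C::GFP+. Of 8 markers of feeder fibroblasts, 5 could be tested and 3 were called higher, with sums of 27.0 and 25.8 TPM in SA, against 9.10 and 9.27 TPM in 2C::GFP+. The 3 were Thy1 (1.5 ± 0.24 log2, adjusted p = 0.000545), Col1a1 (2.15 ± 0.43, adjusted p = 0.00238) and Col1a2 (3.02 ± 0.70, adjusted p = 0.00624). Thy1 held most of the sum, with 22.1 and 21.0 TPM in SA, against 8.14 and 7.85 TPM in 2C::GFP+. Of the other 5, Acta2 had 0.856 and 0.126 TPM in SA, against 0.144 and 0.284 TPM in 2C::GFP+, and Col3a1, Postn, Dcn and Lum were at or below 0.107 TPM in these 4 libraries, with Col3a1, Postn and Lum at 0 in SA replicate 2. Trophoblast markers (1 of 5 tested higher, Elf5 at 0 in SA replicate 2 and in both 2C::GFP+ libraries) summed to 31.7 and 59.5 TPM in SA, against 31.8 and 40.7 TPM in 2C::GFP+. Neuroectoderm markers (2 of 5 higher and 1 lower) summed to 116 and 201 TPM in SA, against 205 and 173 TPM in 2C::GFP+.

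**Figure D3:**
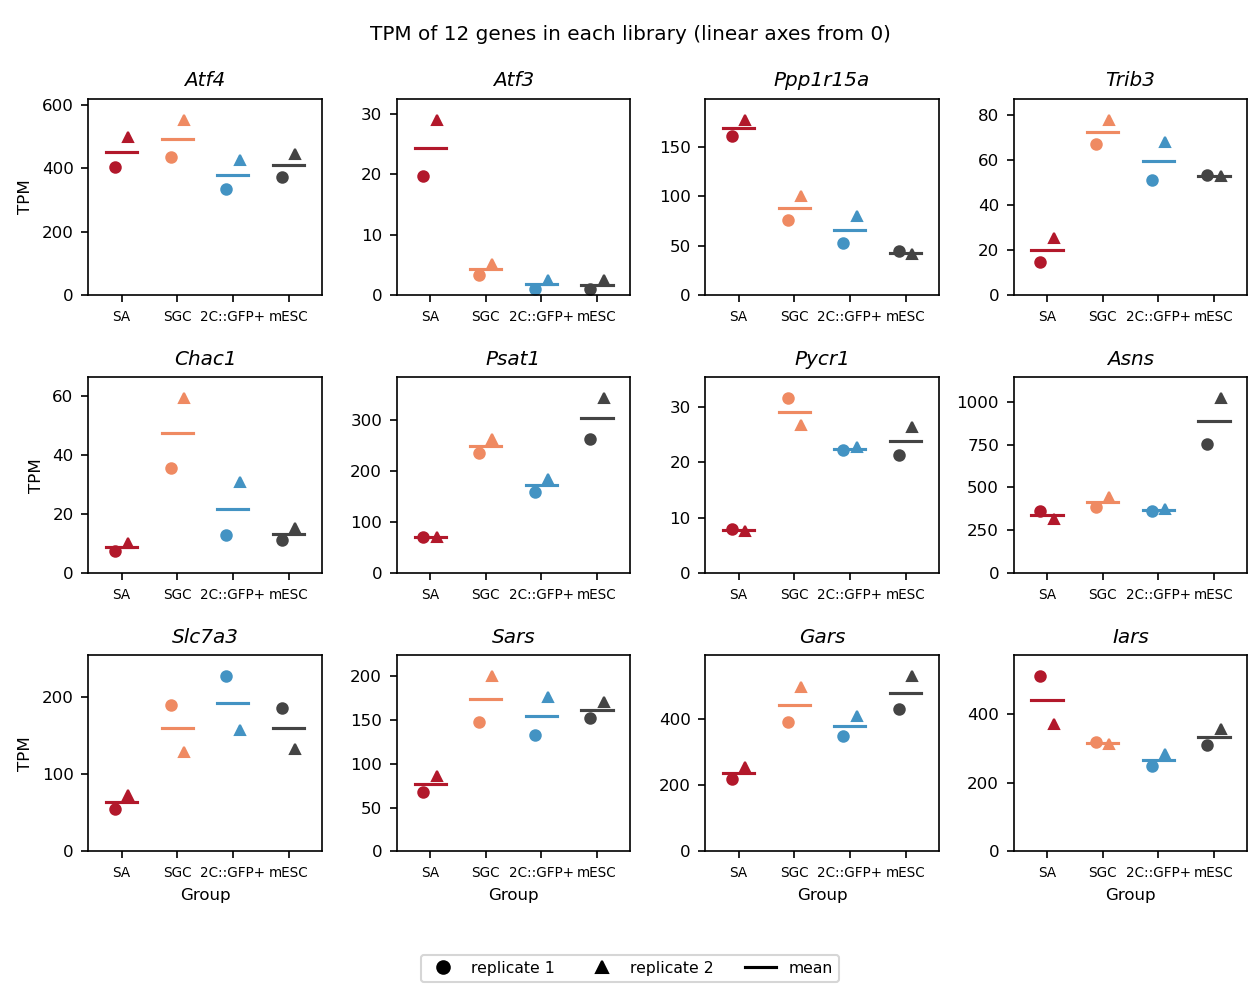
Each panel gives the TPM of 1 gene on a linear axis from 0, with circles for replicate 1, triangles for replicate 2 and a line for the mean of the 2 libraries. Groups run in the order SA, SGC, 2C::GFP+ and mESC. Atf3 and Ppp1r15a are highest in SA, Trib3, Psat1, Pycr1, Slc7a3, Sars and Gars are lowest in SA, and Asns is highest in mESC at 754 and 1020 TPM.

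SA was also set against SGC, which shares SGC0946 and differs in AS8351 and the cytokine. Here too the called transcription factors, Atf3 and Atf5, stood higher in SA. The called enzymes and transporters stood lower, namely Psat1, Phgdh, Psph, Pycr1, Slc7a5 and Slc3a2. The called feedback genes split, with Ppp1r15a higher and Trib3 and Chac1 lower. Altogether 3 of 22 network genes were called higher and 8 lower, and 1 of 12 synthetases higher and 7 lower. Of all genes tested, 16.1% were called, 7.92% higher and 8.18% lower. This comparison shares its SA libraries with the one above, so the values are not independent of it.

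Chac1 fell the most of the 34 genes, with 7.58 and 10.2 TPM in SA, against 35.8 and 59.3 TPM in SGC (-2.26 ± 0.36 log2, edgeR adjusted p = 0.00151). Trib3 had 14.6 and 25.4 TPM in SA, against 67.4 and 77.9 TPM in SGC (-1.75 ± 0.19, adjusted p = 9.67e-05). Psat1 had 69.9 and 70.7 TPM in SA, against 234 and 263 TPM in SGC (-1.65 ± 0.15, adjusted p = 3e-05). In these 3 genes the SA libraries were below the SGC libraries without overlap. Pycr1 had 8.06 and 7.61 TPM in SA, against 31.6 and 26.8 TPM in SGC (-1.71 ± 0.20, adjusted p = 0.000121). Atf3 had 19.7 and 29.0 TPM in SA, against 3.36 and 5.17 TPM in SGC (2.7 ± 0.45, adjusted p = 0.00165). Ppp1r15a had 161 and 177 TPM in SA, against 76.2 and 100 TPM in SGC (1.11 ± 0.18, adjusted p = 0.00101). Atf4 itself overlapped, with 405 and 499 TPM in SA, against 436 and 553 TPM in SGC (0.03 ± 0.14, adjusted p = 0.926). Ddit3 differed by 0.04 ± 0.31 (log2, adjusted p = 0.96) and Asns by -0.10 ± 0.17 (adjusted p = 0.738).

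The synthetases that fell against SGC were Cars, Gars, Lars, Mars, Nars, Sars and Yars, and Iars rose. Sars had 67.5 and 86.0 TPM in SA, against 148 and 200 TPM in SGC (-1.02 ± 0.15 log2, adjusted p = 0.000522). Nars had 179 and 185 TPM in SA, against 322 and 395 TPM in SGC (-0.81 ± 0.14, adjusted p = 0.00175). Gars had 218 and 253 TPM in SA, against 390 and 494 TPM in SGC (-0.75 ± 0.14, adjusted p = 0.00257). The class median was -0.45, beside -0.36 for the ATF4 network and -0.02 for all tested genes. Of the other lists, 11 of 23 other ATF4 targets fell and 1 rose, led by Gpt2 (-1.63 ± 0.14, adjusted p = 3e-05) and Jdp2 (-2.71 ± 0.30, adjusted p = 0.000102), and Ddit4 rose (1.47 ± 0.22, adjusted p = 0.00162). Of 11 other cytosolic synthetases 1 fell, Vars (-0.59 ± 0.13, adjusted p = 0.00662), and of 17 mitochondrial ones 2 fell, among them Vars2 (-0.57 ± 0.17, adjusted p = 0.0337). Among all tested genes 7.92% were higher and 8.18% lower, and for both synthetase lists the share called lower was close to that. In the endoplasmic reticulum arm 3 of 19 fell, led by Xbp1 (-1.23 ± 0.13, adjusted p = 9.41e-05) and the chaperone Hsp90b1 (-0.52 ± 0.13, adjusted p = 0.0175), and Dnajb9 rose (1.22 ± 0.19, adjusted p = 0.000814). Of the 14 eIF2 kinases and factors 3 fell, led by Ppp1r15b, the constitutive counterpart of Ppp1r15a (-0.63 ± 0.16, adjusted p = 0.0152), and Eif2ak2 (-0.57 ± 0.17, adjusted p = 0.0393). Beside these results, 3 of 8 2-cell-like, 4 of 6 primitive endoderm and 1 of 5 feeder markers were called higher, 2 of 8 ESC and 1 of 5 neuroectoderm markers lower, and of 5 trophoblast markers 1 was higher and 1 lower. ESC markers summed to 8820 and 8770 TPM in SA, against 10100 and 10000 TPM in SGC, and primitive endoderm markers to 32.9 and 76.2 TPM in SA, against 6.63 and 13.1 TPM in SGC. Their part was not tested.

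Without SGC replicate 1, adjusted p was 0.0502 for Atf3, 0.0948 for Atf5, 0.0636 for Cars, 0.174 for Iars, 0.0913 for Mars and 0.0876 for Phgdh. Without SGC replicate 2, it was 0.231 for Atf5, 0.286 for Cars, 0.264 for Iars, 0.202 for Mars, 0.145 for Phgdh and 0.0769 for Slc3a2. Without SA replicate 1, it was 0.137 for Atf5, 0.142 for Cars, 0.239 for Iars and 0.067 for Slc3a2. The log2 fold change of Iars was then 0.24. Without SA replicate 2, it was 0.222 for Mars and 0.175 for Phgdh. Without 2C::GFP+ replicate 1, it was 0.0524 for Cars, 0.0781 for Iars, 0.0582 for Mars and 0.0605 for Phgdh, and without 2C::GFP+ replicate 2 it was 0.172 for Iars. Without mESC replicate 1, it was 0.0643 for Cars, 0.0737 for Iars and 0.0554 for Mars, and without mESC replicate 2 it was 0.125 for Iars. Slc7a3, with 55.6 and 73.1 TPM in SA, against 190 and 129 TPM in SGC, missed the threshold (adjusted p = 0.0507) and passed it in 14 of 17 alternatives. Vldlr was called lower without the filter on low counts (-1.43, adjusted p = 0.0309), and Shmt2 with the replicate number as a block (-0.37, 0.029). Calls were also lost with all 8 libraries kept. DESeq2 did not call Cars (adjusted p = 0.0893) or Mars (0.0525). Limma on log2(TPM + 1) did not call Cars (0.0678), Iars (0.0839) or Atf5 (0.128). EdgeR with DESeq2 size factors did not call Cars (0.0772) or Phgdh (0.0529). In every alternative run, 7 of the 11 network calls and 5 of the 8 synthetase calls held.

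In SGC against 2C::GFP+, which differ in the DOT1L inhibitor and possibly in medium, no gene of either class was called, and 0% of all tested genes were. The smallest adjusted p among the 34 genes was 0.342, for Psat1. The network nonetheless leaned upward: 21 of 22 log2 fold changes were positive, with a median of 0.27, beside 9 of 12 and 0.07 for synthetases (-0.03 without SGC replicate 2), and 10965 of 20608 and 0.03 for all genes. Both SGC libraries were above both 2C::GFP+ libraries in TPM for 17 of 22 network genes and 8 of 12 synthetases, against 31.5% of all tested genes. That count depends on the scale. On log2(TPM + 1) and log2(TPM + 0.1) the median log2 fold change of all genes was 0.085 and 0.119, above the 0.03 of edgeR. The 8 synthetases ran from Cars at 0.29 in edgeR to Tars, Mars and Eprs at 0.01, 0.02 and -0.05. At an unadjusted p under 0.05 stood 7 network genes and 1 synthetase, all higher in SGC, against 9.88% of all genes. Marker lists leaned as well, with no marker called: 8 of 8 2-cell-like markers were positive (median 1.19), as were 5 of 5 feeder markers (1.21), 5 of 6 primitive endoderm markers (0.74), 4 of 5 neuroectoderm markers (0.33) and 3 of 5 trophoblast markers (0.06), against 0 of 8 ESC markers (-0.31). Their summed levels were 1920 and 1990 TPM in SGC, against 691 and 954 TPM in 2C::GFP+, for 2-cell-like markers, and 10100 and 10000 TPM in SGC, against 12400 and 11200 TPM in 2C::GFP+, for ESC markers. Their part in the lean of the network was not tested.

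Chac1 had 35.8 and 59.3 TPM in SGC, against 13 and 30.8 TPM in 2C::GFP+ (1.05 ± 0.34 log2, adjusted p = 0.346). It passed the threshold without the filter on low counts (adjusted p = 0.0115) and with the replicate number as a block (0.0357). Psat1 had 234 and 263 TPM in SGC, against 159 and 185 TPM in 2C::GFP+ (0.42 ± 0.14, adjusted p = 0.342). Phgdh had 195 and 226 TPM in SGC, against 137 and 153 TPM in 2C::GFP+ (0.43 ± 0.16, adjusted p = 0.387). These 3 genes did not overlap between the groups. Atf3 had 3.36 and 5.17 TPM in SGC, against 1.05 and 2.51 TPM in 2C::GFP+ (1.27 ± 0.48, adjusted p = 0.406). Atf4 had 436 and 553 TPM in SGC, against 334 and 427 TPM in 2C::GFP+ (0.28 ± 0.14, adjusted p = 0.528). Asns, the most abundant of the enzymes, had 384 and 443 TPM in SGC, against 361 and 377 TPM in 2C::GFP+ (0.05 ± 0.17, adjusted p = 0.945). The only network gene with a negative value was Slc7a3, at -0.39 ± 0.31 (adjusted p = 0.723). DESeq2 called 288 genes in this comparison and none of the 34. The other lists had no gene called by edgeR: the medians were 0.14 for other ATF4 targets, where Eif4ebp1 had the highest level and a log2 fold change of 0.00 ± 0.12, and -0.21 for other cytosolic synthetases, where Kars had the highest level and -0.27 ± 0.13.

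In 2C::GFP+ against mESC, few of the 34 genes were called. Of the 8 enzymes, Asns, Aldh18a1 and Psat1 fell, as did the transporter gene Slc7a5, and Ppp1r15a rose. That is 1 of 22 network genes higher and 4 lower, and 0 of 12 synthetases in either direction, against 24.3% of all tested genes called, 15.2% higher and 9.12% lower. For the network the called share is close to that of all genes. At an unadjusted p under 0.05, 2 synthetases stood lower and 0 higher, against 36.3% of all genes, and DESeq2 called none of the 12. With the shared fit lacking both SA libraries, edgeR called 3 synthetases lower, Gars, Iars and Tars, and likewise without SA replicate 2 alone.

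Asns had 361 and 377 TPM in 2C::GFP+, against 754 and 1020 TPM in mESC (-1.26 ± 0.17 log2, edgeR adjusted p = 0.000151). Aldh18a1 had 55.1 and 79.8 TPM in 2C::GFP+, against 106 and 144 TPM in mESC (-0.90 ± 0.17, adjusted p = 0.00155). Psat1 had 159 and 185 TPM in 2C::GFP+, against 263 and 342 TPM in mESC (-0.82 ± 0.14, adjusted p = 0.000868). These 3 calls held in every alternative run, without overlap between the groups. Slc7a5 had 280 and 334 TPM in 2C::GFP+, against 411 and 429 TPM in mESC (-0.46 ± 0.12, adjusted p = 0.0148). Its adjusted p was 0.104 without 2C::GFP+ replicate 1 and 0.0751 without mESC replicate 1. Ppp1r15a had 52.5 and 79.5 TPM in 2C::GFP+, against 44.4 and 41.2 TPM in mESC (0.59 ± 0.18, adjusted p = 0.0243). Its adjusted p was 0.28 without 2C::GFP+ replicate 2, 0.0787 without mESC replicate 1 and 0.148 without mESC replicate 2. Atf4 had 334 and 427 TPM in 2C::GFP+, against 374 and 447 TPM in mESC (-0.12 ± 0.14, adjusted p = 0.585). The other serine and proline enzymes were not called: Phgdh had 137 and 153 TPM in 2C::GFP+, against 162 and 219 TPM in mESC (-0.40 ± 0.16, adjusted p = 0.0802), Psph differed by 0.24 ± 0.15 (adjusted p = 0.293) and Pycr1 by -0.08 ± 0.19 (adjusted p = 0.796). Phgdh was called lower in 5 alternatives, among them without SA replicate 1 (adjusted p = 0.0356) and without SA replicate 2 (0.0144), Sesn2 without SA replicate 2 (-0.34, 0.0473), and Chac1 higher without 2C::GFP+ replicate 1 (1.18, 0.0361). Ddit3 was lower in both 2C::GFP+ libraries, with 8.28 and 9.36 TPM, against 12.4 and 15.8 TPM in mESC, but was not called (-0.67 ± 0.30, adjusted p = 0.126).

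Among the other lists, 5 of 23 ATF4 targets fell and 0 rose, led by Bcat1, an aminotransferase of branched-chain amino acids (-0.71 ± 0.12 log2, adjusted p = 0.000933), and Aldh1l2, a mitochondrial folate enzyme (-1.97 ± 0.44, adjusted p = 0.00522). By contrast 7 of 19 genes of the endoplasmic reticulum arm rose and 0 fell, beside 15.2% higher and 9.12% lower among all tested genes. Xbp1 had 136 and 143 TPM in 2C::GFP+, against 38.6 and 46.1 TPM in mESC (1.72 ± 0.13, adjusted p = 1.15e-06), and Atf6 had 18.3 and 21.3 TPM in 2C::GFP+, against 12.3 and 13.2 TPM in mESC (0.63 ± 0.14, adjusted p = 0.00579). Kars rose and Qars fell among 11 other cytosolic synthetases, at 0.40 ± 0.13 and -0.49 ± 0.16 (adjusted p = 0.04 and 0.0405). Eif2b3 rose (0.73 ± 0.15, adjusted p = 0.00342) and Eif2b5 fell (-0.47 ± 0.14, adjusted p = 0.0294) among the 14 eIF2 kinases and factors. Of the markers of other cell types, 8 of 8 for 2-cell-like cells were called higher, with sums of 691 and 954 TPM in 2C::GFP+, against 3.99 and 12.3 TPM in mESC. Trophoblast markers were lower in 4 of 5, with 31.8 and 40.7 TPM in 2C::GFP+, against 112 and 141 TPM in mESC. Feeder markers were higher in 2 of 5, with 9.10 and 9.27 TPM in 2C::GFP+, against 3.72 and 5.20 TPM in mESC. Thy1 held most of these sums, with 8.14 and 7.85 TPM in 2C::GFP+, against 3.30 and 3.98 TPM in mESC. The other called gene, Acta2, had 0.144 and 0.284 TPM in 2C::GFP+, against 0 TPM in both mESC libraries. Of the 5, 4 had positive values, and Col1a2 was negative and not called (-1.65 ± 0.70 log2, edgeR adjusted p = 0.107). Neuroectoderm markers were higher in 2 and lower in 1 of 5, primitive endoderm markers higher in 1 of 6, and ESC markers lower in 1 of 8. Their part in these results was not tested.

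**Figure D4:**
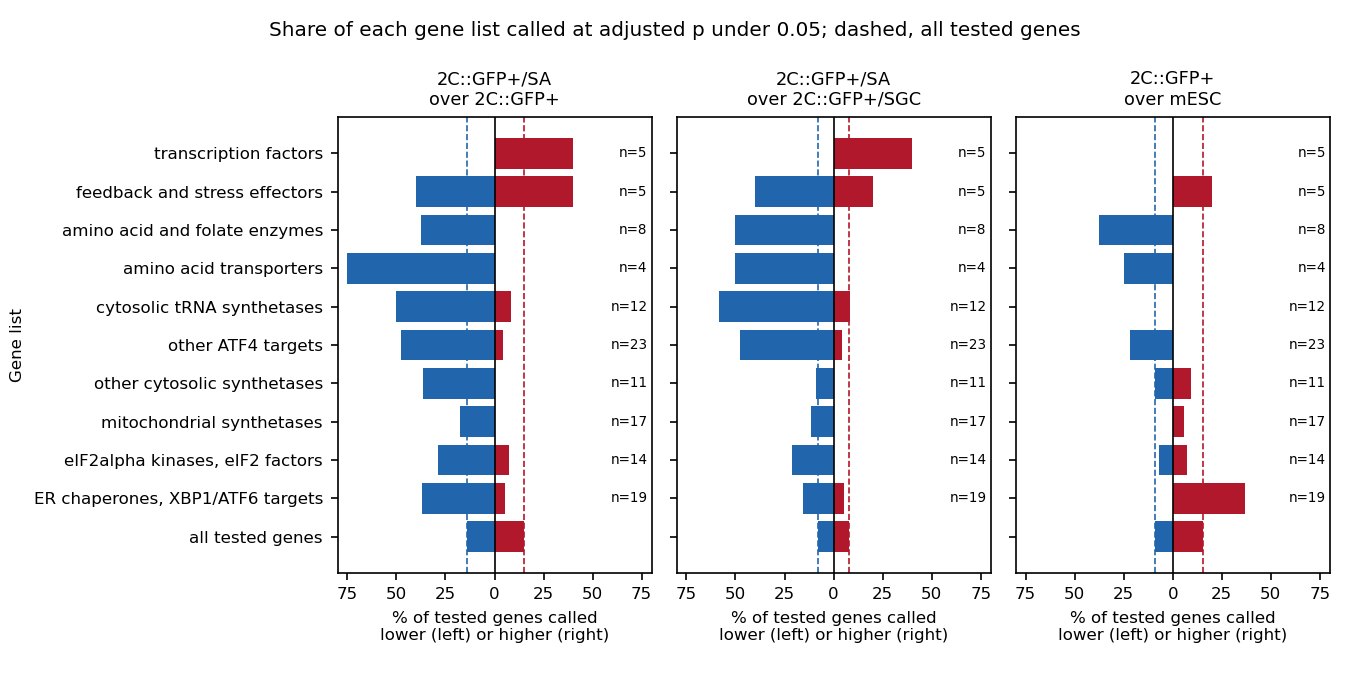
Bars give the percentage of tested genes called lower (left) or higher (right) at an adjusted p under 0.05 in each gene list, with the number tested at the right and dashed lines at the shares of all tested genes. The first 5 rows are the 34 genes by role. In SA over 2C::GFP+, 3 of 4 transporters and 6 of 12 synthetases are lower, and in 2C::GFP+ over mESC 7 of 19 genes of the endoplasmic reticulum arm are higher.

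In SA against mESC, 4 of 22 network genes were higher and 11 lower, and 0 of 12 synthetases were higher and 8 lower. Of all tested genes 45.1% were called, 25% higher and 20.1% lower. All 8 enzymes had negative values and 7 of them fell, Mthfd2 being the exception (-0.05 ± 0.16 log2, edgeR adjusted p = 0.815). Psat1 had 69.9 and 70.7 TPM in SA, against 263 and 342 TPM in mESC (-2.04 ± 0.15, adjusted p = 1.84e-07). Asns had 361 and 314 TPM in SA, against 754 and 1020 TPM in mESC (-1.31 ± 0.17, adjusted p = 4.29e-05). Ppp1r15a had 161 and 177 TPM in SA, against 44.4 and 41.2 TPM in mESC (2.03 ± 0.18, adjusted p = 1.33e-06), and Atf3 rose by 4.03 ± 0.49 (adjusted p = 2.43e-05). The cystine carrier Slc7a11 rose (0.75 ± 0.22, adjusted p = 0.0138) while the other 3 transporter genes fell. Tars, for threonine, had 101 and 123 TPM in SA, against 157 and 177 TPM in mESC (-0.53 ± 0.12, adjusted p = 0.00262). Wars, for tryptophan, overlapped, with 100 and 136 TPM in SA, against 113 and 115 TPM in mESC (0.08 ± 0.13, adjusted p = 0.653). Of 23 other ATF4 targets, 16 fell and 1 rose, and 5 of 11 other cytosolic synthetases fell with none higher. Markers moved here too: primitive endoderm was higher in 6 of 6, with 32.9 and 76.2 TPM in SA, against 3.30 and 4.71 TPM in mESC, and feeder markers in 4 of 5, with 27.0 and 25.8 TPM in SA, against 3.72 and 5.20 TPM in mESC. Thy1 held most of the feeder sums, with 22.1 and 21.0 TPM in SA, against 3.30 and 3.98 TPM in mESC. Trophoblast markers were lower in 4 of 5, with 31.7 and 59.5 TPM in SA, against 112 and 141 TPM in mESC. The 2-cell-like markers were higher in 8 of 8, neuroectoderm in 2 of 5, and ESC markers were lower in 5 of 8. Their part in these results was not tested.

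Of the 23 calls, 16 held in every alternative run. Some of the others were lost without single libraries. Without SA replicate 1, adjusted p was 0.121 for Cars, 0.267 for Slc3a2 and 0.0762 for Slc7a3, and without SA replicate 2 it was 0.0855 for Aldh18a1, 0.101 for Phgdh and 0.167 for Slc7a3. Without mESC replicate 1, it was 0.0834 for Cars and 0.122 for Slc3a2. Without mESC replicate 2, it was 0.145 for Aldh18a1, 0.0907 for Cars, 0.123 for Phgdh, 0.0756 for Slc3a2 and 0.113 for Slc7a11. Slc3a2 also missed the threshold without 2C::GFP+ replicate 1 (0.058) and without SGC replicate 1 (0.0503). With all libraries kept, Aldh18a1 was not called by DESeq2 (0.0685) or limma (0.0608), Slc3a2 was not called by DESeq2 (0.136) or limma (0.112), Cars was not called by DESeq2 (0.127) or limma (0.103), and Slc7a11 was not called by limma on log2(TPM + 1) (0.121). Upper-quartile scaling lost Shmt2 (0.0501), Phgdh (0.0618), Aldh18a1 (0.111), Slc3a2 (0.176) and Cars (0.153). Iars was called higher by DESeq2 (0.58, adjusted p = 0.0166) and in 3 other alternatives, among them without SA replicate 2 (0.83, 4.41e-06), and Cebpb was called higher in 4 alternatives, among them without SA replicate 2 (1.92, 0.0275) and without mESC replicate 1 (2.97, 0.0271).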

How the data were processed

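Per the submitters' processing notes, the tools were featureCounts 2.0.0, STAR 2.7.4a, Trim Galore 0.6.5 and FastQC 0.11.9, with mm10 and GRCm38 named as builds. Annotation release, strand setting and treatment of multiply mapping reads are not given there. The deposited count table holds whole reads per gene, and the TPM values deposited by the authors are counts per length scaled to 1 total. All 8 columns were used.

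Counts of 20608 genes kept by filterByExpr were scaled by TMM (factors between 0.942 and 1.059) and fitted with robust edgeR 4.0.16 quasi-likelihood (R 4.3.3), with 1 term per group over all 8 libraries. F-test p-values were adjusted by Benjamini-Hochberg over all tested genes and called under 0.05. Each SE was recovered from the size of the log2 fold change over the root of its F statistic. The fit was also run on simulated counts, as a check of the code. Far fewer genes were changed there than were called in SA, so it does not measure power here. DESeq2 1.42.0 and limma 3.58.1 served as alternatives. TPM is used for levels, TMM-scaled counts for folds, so small differences can differ in sign.

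The 34 genes and all lists were chosen with earlier results of these data known. All 34 are named. From each other list, the text names, by smallest adjusted p, up to 2 called genes of the commoner direction and 1 of the opposite one, or the gene with the highest TPM where none is called; 1 gene so chosen is not reported here. Same-numbered libraries share depth, not a stated source.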

Additional observations from a re-analysis of the deposited data

How the results depend on the processing

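With 2 libraries per group there were 4 residual degrees of freedom. EdgeR also drew on the spread of other genes, with a median of 9.93 prior degrees of freedom. Small differences can still be missed, and a gene that missed the threshold is not shown to be equal. There were 18 alternatives, 16 of them planned and 2 (upper-quartile scaling, and leaving out both SA libraries) chosen after seeing the data. Of 2957 values for single genes, 2766 kept their status as called or not called, 138 lost the call and 53 gained one. Values called in neither run count as kept, whatever their sign, so the 2766 do not measure how stable the calls are. Of the values called in either run, 0 changed sign. Where a count moved by more than 1.5 times, the cause was not tested.

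For 2C::GFP+ against mESC, the 5 network calls became 3 with limma at either pseudocount, and 3 to 7 when single libraries were left out. The 0 synthetase calls became 1 with a filter of 1 CPM, 1 with the replicate number as a block, 3 with only the 4 libraries compared, 3 without both SA libraries, and 0 to 3 without single libraries. All genes called were 5016, or 2924 with limma on log2(TPM + 1), and 2872 to 5869 without single libraries. For SGC against 2C::GFP+, 1 network gene was called without a low-count filter and 1 with the block. All genes called were 0, or 499 without the filter, 288 by DESeq2, 1 by limma on log2(TPM + 0.1), 284 with the block, 326 with only the 4 libraries, 79 without both SA libraries, and 0 to 431 without single libraries. For SA against 2C::GFP+, leaving out single libraries gave 4 to 7 synthetases and 2890 to 5861 of all genes, the lowest being without 2C::GFP+ replicate 1. For SA against SGC, it gave 5 to 7 synthetases and 1207 to 3324 of all genes, the lowest being without SGC replicate 1, and with only the 4 libraries the counts were 5 and 2210. Of the calls between SA and SGC, 49.2% were higher, and 36.1% with limma on log2(TPM + 0.1).

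Over all tested genes, same-numbered libraries deviated together with correlations between 0.041 and 0.142, so the numbers were not taken to pair them. Of the 34 genes, however, 28 were lower in replicate 1 in each group. Within replicate number, the median log2 TPM ratio of the network in SA over 2C::GFP+ was 0.03 in replicate 1 and -0.28 in replicate 2. For synthetases it was -0.46 and -0.39. The replicate block gave 6070 calls for 2C::GFP+ against mESC, 6830 for SA against 2C::GFP+, 4406 for SA against SGC and 10060 for SA against mESC. Upper-quartile scaling moved the median log2 fold change of all genes to 0.119 in SGC and 0.116 in SA over 2C::GFP+, and to 0.181 in SA over mESC, and DESeq2 size factors moved it to 0.101 in SA over 2C::GFP+ and 0.12 in SA over mESC. The median of the ATF4 network in SA over 2C::GFP+, -0.10 in the report, was 0.01 with upper-quartile scaling, below that shift of all genes, and 0.01 with the block.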
